A study of Bos taurus with 14 samples.

Results

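Milk holds far more calcium than blood, and the secretory cells of the mammary gland carry it across. The expression of 8 genes of this transport was followed in dry Holstein cows: ORAI1, STIM1, ATP2A2, ATP2B1, ATP2B2, ATP2C1, PTHLH and CASR. Each was followed through all probe sets of the deposited array table whose single annotated symbol is that name. That gave 14 probe sets of 8 genes, out of 24016 probe sets and 9155 genes with a single symbol. ATP2A2 had 4 probe sets, ATP2B1 3, ORAI1 2, and the other genes 1 each. Where a gene had several, they are called the main, the second, the third and the fourth by falling mean signal.

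Calcium enters a cell through store-operated channels. ORAI1 forms their pore, and STIM1 is the sensor in the endoplasmic reticulum that opens them when the store runs low. ATP2A2 encodes the pump SERCA2, which refills that store, and ATP2C1 encodes the Golgi pump SPCA1, which loads the secretory pathway. ATP2B1 and ATP2B2 encode the plasma membrane pumps PMCA1 and PMCA2. In the lactating mouse, PMCA2 is the main pump of the apical membrane. PTHLH encodes parathyroid hormone-related protein, which the lactating gland releases to draw calcium from bone, and CASR encodes the receptor through which cells sense extracellular calcium.

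The samples were mammary biopsies from Holstein cows in the dry period, which began about 60 days ahead of the predicted calving. Random assignment had put each cow under short days (SD), with 8 h of light a day, or under long days (LD), with 16 h. Biopsies came from SD day -9 (4 arrays), SD day -24 (3 arrays), LD day -9 (4 arrays) and LD day -24 (3 arrays), days being counted from calving. RNA of an integrity number above 7 was hybridised to Affymetrix bovine arrays. No group was untreated, so LD is the reference of the photoperiod contrast and day -24 that of the day contrast. The labels do not tie replicate numbers to cows, and they do not say whether the same cows were biopsied at both days. The main fits, the permutation tests and the correlations treat arrays as independent. If cows recur, this does not hold for day contrasts, averages over days, the interaction or correlations across days. Their p-values may then be wrong, and may be too small. All p-values measure the spread between these arrays. The tissue is a mixture, and fewer cells of a type cannot be told apart from less RNA per cell.

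All values are RMA log2 signals, and array medians lay between 6.43 and 6.61. All 5 milk protein genes measured (4 caseins and LALBA) were bright, with array means of 12.38 to 12.99 in SD day -9, 12.22 to 12.70 in SD day -24, 12.44 to 12.81 in LD day -9 and 12.36 to 12.97 in LD day -24. Of 15 luminal epithelial markers measured, 3 had a mean signal below the lower quartile of the arrays, ESR1, AREG and ERBB3, while KRT19 averaged 12.54 and EPCAM 10.79. Libraries LD day -9 replicate 4 and SD day -24 replicate 3 shared a group of 280 probe sets of low signal, and no calcium gene probe set is among them. LD day -24 replicate 1 and SD day -9 replicate 1 stood apart on principal components. No difference of the 8 genes passed the adjusted threshold, with or without these arrays, and values without an array stand beside those that it moves most.

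None of the 14 probe sets passed an adjusted p of 0.05 in any of 7 contrasts. These were SD minus LD at each day and averaged, day -9 minus day -24 within each photoperiod and averaged, and the interaction. The test was limma with Benjamini-Hochberg adjustment over all 24016 probe sets, and it called 0% of them in each contrast. At an unadjusted p under 0.05 the share of all probe sets was 2.77% for SD minus LD at day -9, where 1 member reached it, and 2.42% at day -24, where 1 did. Averaged over days the share was 1.94%, and 1 member reached it. For day -9 minus day -24 it was 4.56% in SD (2 members), 7.47% in LD (2 members) and 7.72% averaged over photoperiods (2 members). For the interaction it was 4.15%, and 0 members reached it. Groups failed to overlap for 0 members between photoperiods at day -9 (2.46% of all probe sets), 0 at day -24 (5.67%) and 0 over both days (0.05%). Between days they failed to overlap for 1 member in SD (5.9%), 1 in LD (8.98%) and 0 over both photoperiods (0.287%).

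The 14 differences lay on either side of 0. Between photoperiods at day -9, 9 were above 0 and 5 below, with a median of 0.08, where 50.2% of all probe sets were above 0, 49.8% below and the median was 0.00. At day -24, 5 were above 0 and 9 below, with a median of -0.13, where 52.7% of all probe sets were above 0, 47.3% below and the median was 0.01. The median of day -9 minus day -24 was 0.06 in SD and -0.01 in LD, against -0.01 in SD and 0.00 in LD over all probe sets.

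**Figure D1:**
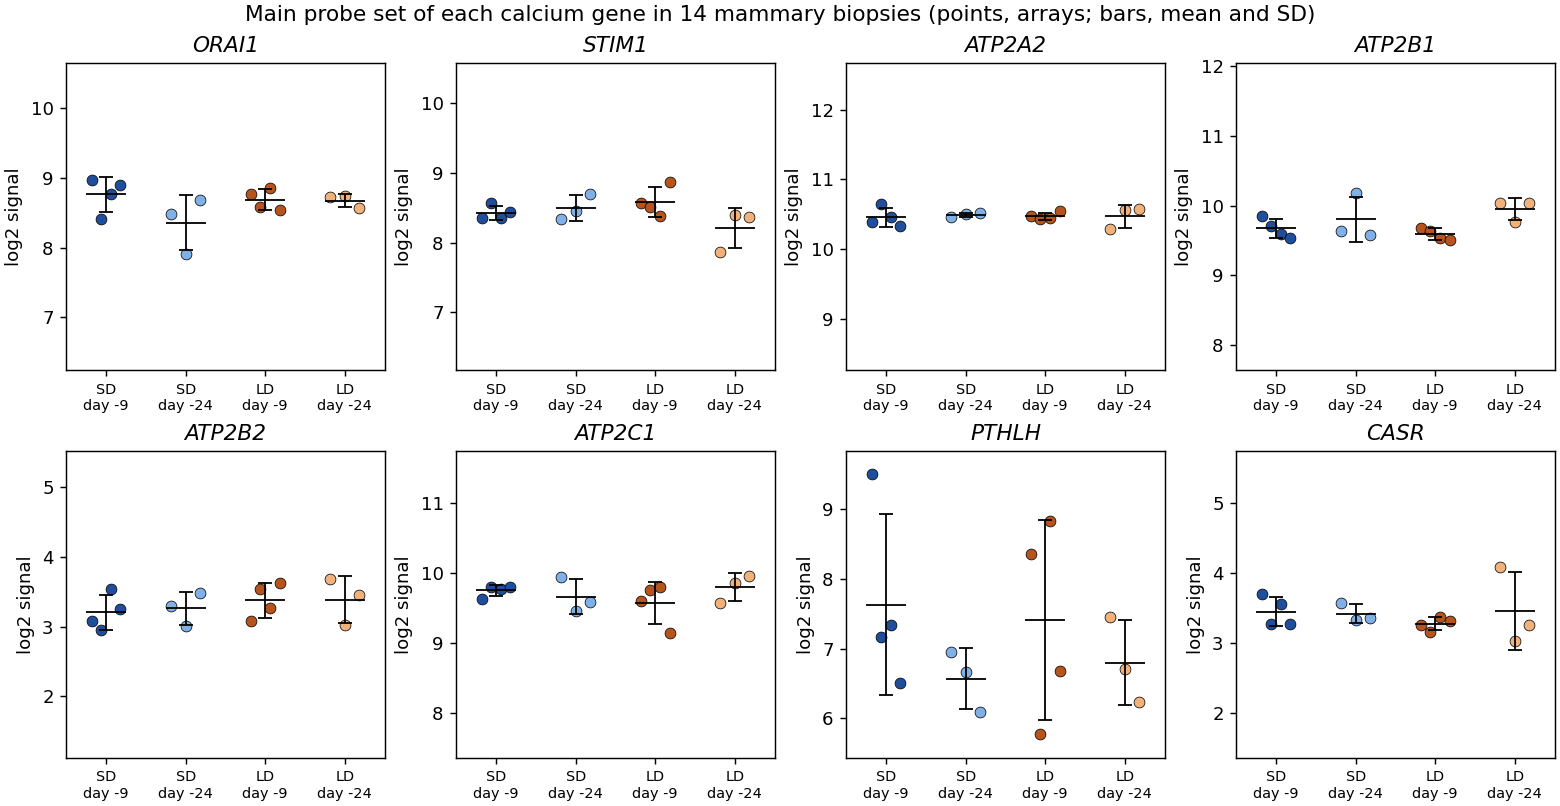
Log2 signal of the main probe set of each of the 8 genes (y axis, the same span of 4.4 log2 units in each panel), by group (x axis); points are arrays, bars the group mean and standard deviation. ATP2A2 lies within 10.28 to 10.65 in all 14 arrays, while PTHLH runs from 5.77 to 9.50.

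These genes differed widely in how far arrays of 1 group spread. The pooled within-group standard deviation of the main ATP2A2 probe set was 0.11, at percentile 4.90 of all probe sets tested. For PTHLH it was 1.11, at percentile 99.5. The other main probe sets lay in between, with 0.18 for ATP2B1, 0.20 for STIM1, 0.22 for ATP2C1, 0.24 for ORAI1, 0.27 for ATP2B2 and 0.29 for CASR.

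ORAI1, the channel pore, had its lowest mean in SD day -24 by both probe sets. The main one was at 8.97, 8.41, 8.76 and 8.89 in SD day -9 and at 8.48, 7.91 and 8.68 in SD day -24. In LD it was at 8.77, 8.59, 8.86 and 8.53 at day -9 and at 8.73, 8.73 and 8.56 at day -24. Only SD day -24 replicate 2 stood clearly under the others, and the groups overlapped. The second probe set was at 5.82, 5.36, 5.66 and 5.78 in SD day -9 and at 5.30, 4.70 and 4.99 in SD day -24. In LD it was at 5.67, 5.46, 5.90 and 5.51 at day -9 and at 5.62, 5.38 and 5.27 at day -24. All 4 SD day -9 arrays lay above all 3 SD day -24 arrays for this probe set, and in LD the days overlapped.

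In SD, the second probe set of ORAI1 differed between the days by 0.65 (SE 0.17, 95% interval 0.29 to 1.02, 1.57-fold; limma unadjusted p = 0.00192, adjusted p = 0.970). Of all probe sets, 5.9% had groups that did not overlap in that contrast, and the exact permutation test gave p = 0.0571, where 35 arrangements allow 0.0286 at the least. The main probe set differed by 0.40 in SD (SE 0.18, interval 0.01 to 0.80, unadjusted p = 0.0436, limma adjusted p = 0.970). In LD the differences were 0.21 (interval -0.16 to 0.57) and 0.01 (-0.38 to 0.41) for the second and the main probe set. Averaged over photoperiods, the second probe set differed by 0.43 (interval 0.17 to 0.69, limma adjusted p = 0.636), with an exact permutation p = 0.00816 that is not adjusted for the 98 contrasts of these probe sets. The main one differed by 0.21 (interval -0.07 to 0.49, exact permutation p = 0.146). The interaction was 0.45 (interval -0.07 to 0.96) for the second and 0.39 (-0.16 to 0.95) for the main probe set. Without SD day -24 replicate 2 these were 0.30 and 0.17, so the day difference in SD was not shown to differ from that in LD.

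A sign of RNA quality, the mean 3-prime minus 5-prime signal of 5 transcripts, was mostly higher at day -24 than at day -9 in SD, with ranges that overlapped. It ran from 0.843 to 0.986 in SD day -9 and from 0.980 to 1.33 in SD day -24, against 0.804 to 1.21 in LD day -9 and 0.903 to 1.12 in LD day -24. With it as a covariate, ORAI1 differed between days in SD by 0.44 for the second probe set and by 0.26 for the main one. A role of RNA quality in these differences was not tested.

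The SD day -24 values rest partly on 1 array. Without SD day -24 replicate 2 the day difference in SD for ORAI1 was 0.51 for the second probe set and 0.18 for the main probe set. Between photoperiods, ORAI1 at day -24 differed by -0.43 for the second probe set (SD minus LD, interval -0.82 to -0.04, unadjusted p = 0.0341, limma adjusted p = 1.0) and by -0.32 for the main one (interval -0.74 to 0.10). Without SD day -24 replicate 2 these were -0.28 and -0.10. At day -9 the differences were 0.02 (interval -0.32 to 0.36) and 0.07 (-0.29 to 0.44).

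STIM1, the store sensor, had its lowest mean in LD day -24. Its probe set was at 8.35, 8.57, 8.36 and 8.44 in SD day -9, at 8.34, 8.45 and 8.70 in SD day -24, at 8.56, 8.51, 8.38 and 8.87 in LD day -9 and at 7.87, 8.39 and 8.36 in LD day -24. LD day -24 replicate 1 was the lowest of all arrays, LD day -9 replicate 4 the highest, and all groups overlapped. Day -9 minus day -24 was -0.07 in SD (interval -0.41 to 0.27) and 0.37 in LD (interval 0.03 to 0.71, unadjusted p = 0.0331, limma adjusted p = 0.651). Without LD day -24 replicate 1, the LD difference of STIM1 was 0.20. The interaction was -0.44 (interval -0.92 to 0.03, limma adjusted p = 0.900), or -0.28 without that array. SD minus LD was -0.15 at day -9 (interval -0.47 to 0.16) and 0.29 at day -24 (-0.07 to 0.65). These STIM1 values were -0.06 at day -9 without LD day -9 replicate 4, and at day -24 the value was 0.12 without LD day -24 replicate 1, or 0.19 when SD day -24 replicate 3 was left out. Across the 14 arrays STIM1 and the main ORAI1 probe set had a Pearson r of -0.19, given as a description.

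**Figure D2:**
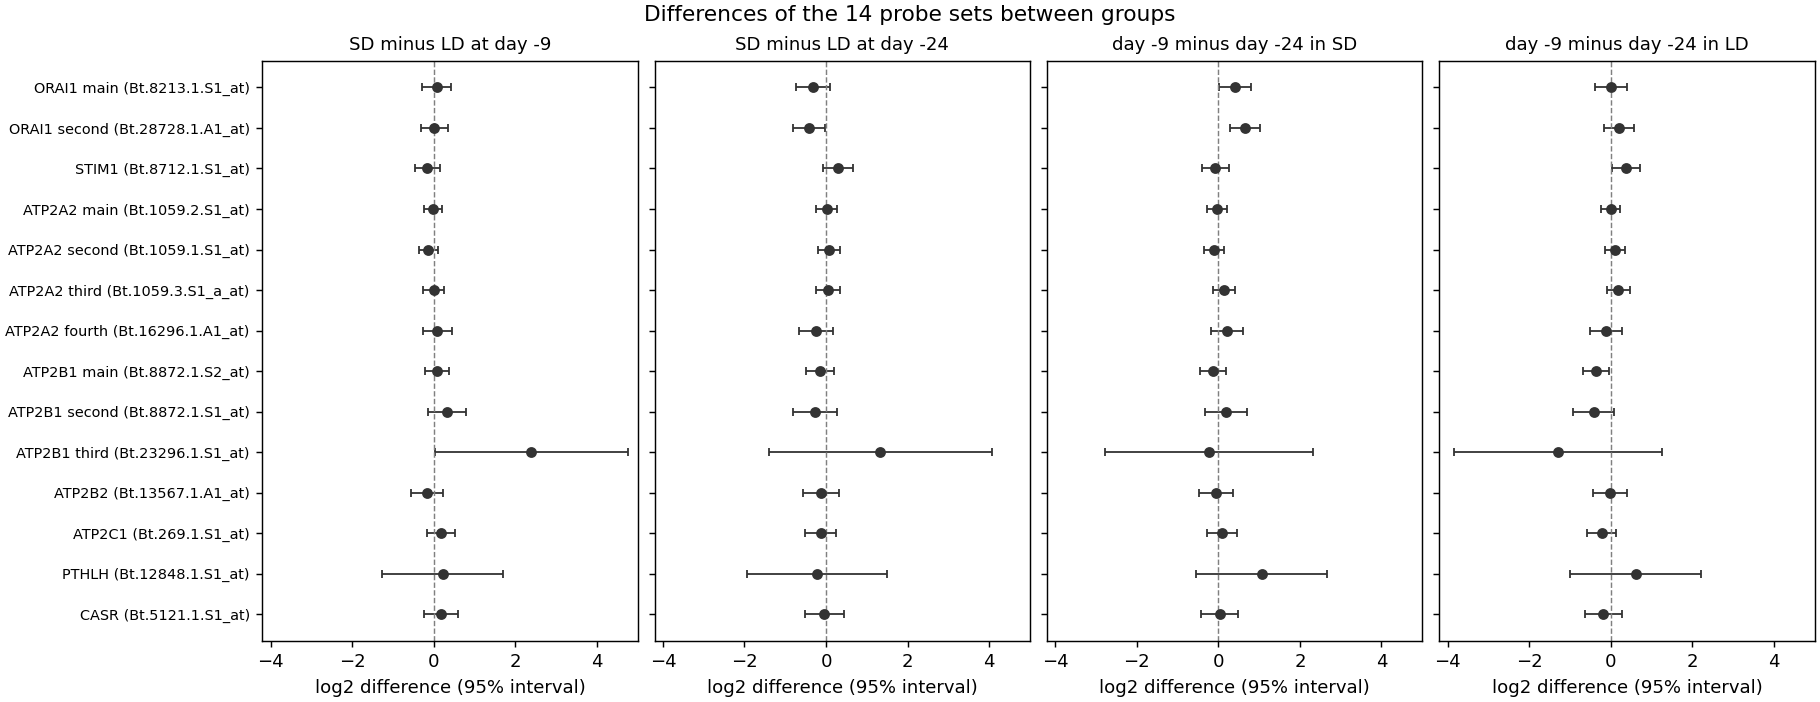
Log2 differences (x axis) of the 14 probe sets (rows) in 4 contrasts, with 95% intervals from limma; the dashed line marks 0. The intervals of the third probe set of ATP2B1 and of PTHLH are far wider than those of the others.

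ATP2A2, the pump of the endoplasmic reticulum, had the smallest spread within groups among the main probe sets. The main probe set was at 10.38, 10.65, 10.46 and 10.33 in SD day -9, at 10.46, 10.50 and 10.51 in SD day -24, at 10.48, 10.43, 10.44 and 10.54 in LD day -9 and at 10.28, 10.57 and 10.57 in LD day -24. The 4 group means lay within 0.04 of each other, less than the spread between arrays of a group. The interval of SD minus LD averaged over days was -0.17 to 0.17 (limma unadjusted p = 0.995). The day difference averaged over photoperiods was -0.02 (interval -0.19 to 0.15).

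Another 3 probe sets carry this symbol. The second ranged from 9.90 to 10.28 over the arrays and differed by -0.13 at day -9 (SD minus LD, interval -0.36 to 0.10), or by -0.07 without LD day -9 replicate 4. The third averaged 8.95 in SD day -9, 8.80 in SD day -24, 8.95 in LD day -9 and 8.76 in LD day -24. Its day difference averaged over photoperiods was 0.17 (interval -0.03 to 0.36, limma adjusted p = 0.679, exact permutation p = 0.0433, not adjusted). The fourth was dim, from 4.17 to 4.93, and below the lower quartile of its array in 4 of 14 arrays. It ran against the main probe set across arrays (Spearman rho = -0.75, permutation p = 0.00287, adjusted p = 0.00957 over 10 pairs of probe sets of the same gene; Pearson r = -0.57, adjusted p = 0.113). The 4 probe sets of ATP2A2 therefore do not give 1 value, and only the main one is used for the level.

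ATP2B1, the plasma membrane pump PMCA1, was lowest in LD day -9 by its main probe set. It was at 9.85, 9.71, 9.60 and 9.53 in SD day -9 and at 9.64, 10.18 and 9.59 in SD day -24. In LD it was at 9.68, 9.64, 9.54 and 9.51 at day -9 and at 10.04, 9.77 and 10.04 at day -24. All 4 LD day -9 arrays lay under all 3 LD day -24 arrays, and in SD the days overlapped. Day -9 minus day -24 in LD was -0.36 (SE 0.15, interval -0.68 to -0.04; unadjusted p = 0.0307, limma adjusted p = 0.651). Of all probe sets, 8.98% had groups that did not overlap in this contrast, and the exact permutation p = 0.0286 is the smallest that 35 arrangements allow. In SD the difference was -0.13 (interval -0.45 to 0.19), or 0.06 without SD day -24 replicate 2, and the interaction was 0.23 (interval -0.22 to 0.68), or 0.12 to 0.42 without 1 SD day -24 array. Averaged over photoperiods it was -0.24 (interval -0.47 to -0.02, limma adjusted p = 0.639), or -0.15 without SD day -24 replicate 2.

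The second probe set of ATP2B1 had a day difference in LD of the same sign, but with groups that overlapped. It was at 8.99, 8.76, 8.67 and 8.57 in SD day -9 and at 8.71, 8.94 and 8.02 in SD day -24. In LD it was at 8.77, 8.50, 8.57 and 7.83 at day -9 and at 8.84, 8.71 and 8.94 at day -24. The lowest arrays were LD day -9 replicate 4 and SD day -24 replicate 3, which also shared the group of low probe sets, and the other arrays lay at least 0.48 above them. Day -9 minus day -24 in LD was -0.42 (interval -0.92 to 0.09, limma adjusted p = 0.655). Without LD day -9 replicate 4 this ATP2B1 value was -0.22. In SD the second probe set differed between days by 0.19 (interval -0.32 to 0.70), a sign opposite to that of the main one. Averaged over photoperiods the second differed by -0.11 (interval -0.47 to 0.25). The main and the second probe set followed each other across the 14 arrays in rank (Spearman rho = 0.90, permutation p = 5e-05, adjusted p = 5e-04; Pearson r = 0.68, adjusted p = 0.0555; r = 0.68 without the 2 arrays farthest from the median of the main probe set). Within days, r was 0.75 over 8 arrays at day -9 and 0.79 over 6 at day -24.

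The third probe set annotated to ATP2B1 split the arrays into separate levels that the main and the second did not show. It was at 8.35, 8.89, 8.35 and 8.48 in SD day -9 and at 9.15, 9.51 and 7.55 in SD day -24. In LD it was at 8.41, 3.98, 8.05 and 4.05 at day -9 and at 8.93, 8.58 and 4.70 at day -24. Thus 3 arrays lay at 4.70 or below, all of them LD, and 11 lay at 7.55 or above, with a gap of 2.86 log2 units (7.24-fold). Only 33 of 24016 probe sets (0.137%) had a larger within-group standard deviation. SD minus LD was 2.40 at day -9 (interval 0.03 to 4.76, unadjusted p = 0.0472, limma adjusted p = 0.984), 1.34 at day -24 (-1.39 to 4.06) and 1.87 over both days (0.06 to 3.67, unadjusted p = 0.0436, limma adjusted p = 1.0). Without LD day -24 replicate 3, ATP2B1 by this probe set differed by -0.02 at day -24 and by 1.19 over both days. Without LD day -24 replicate 1 the day -24 value was 2.10.

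The same 3 arrays were low for major histocompatibility complex class II genes. These genes were chosen after the values were seen, as the closest and the third closest of 7544 probe sets of other genes by r over all arrays. BOLA-DQA1 encodes a class II alpha chain and BOLA-DQB1 a class II beta chain. Since the arrays form separate levels, r is given within the 11 high arrays, as a description. There r with the third probe set was 0.89 for BOLA-DQA1 and 0.73 for BOLA-DQB1, and 0.67 and 0.72 for the main and the second ATP2B1 probe sets. In the 3 low arrays BOLA-DQA1 was between 2.82 and 4.07 and in the 11 high ones between 7.92 and 10.06, while the main ATP2B1 probe set was between 9.51 and 10.04 in the low arrays and between 9.53 and 10.18 in the high ones. BOLA-DQA1 itself differed by 2.70 averaged over days (SD minus LD, SE 1.0, limma adjusted p = 1.0). What the third probe set measures was not tested, and its values are kept apart from those of the other ATP2B1 probe sets.

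**Figure D3:**
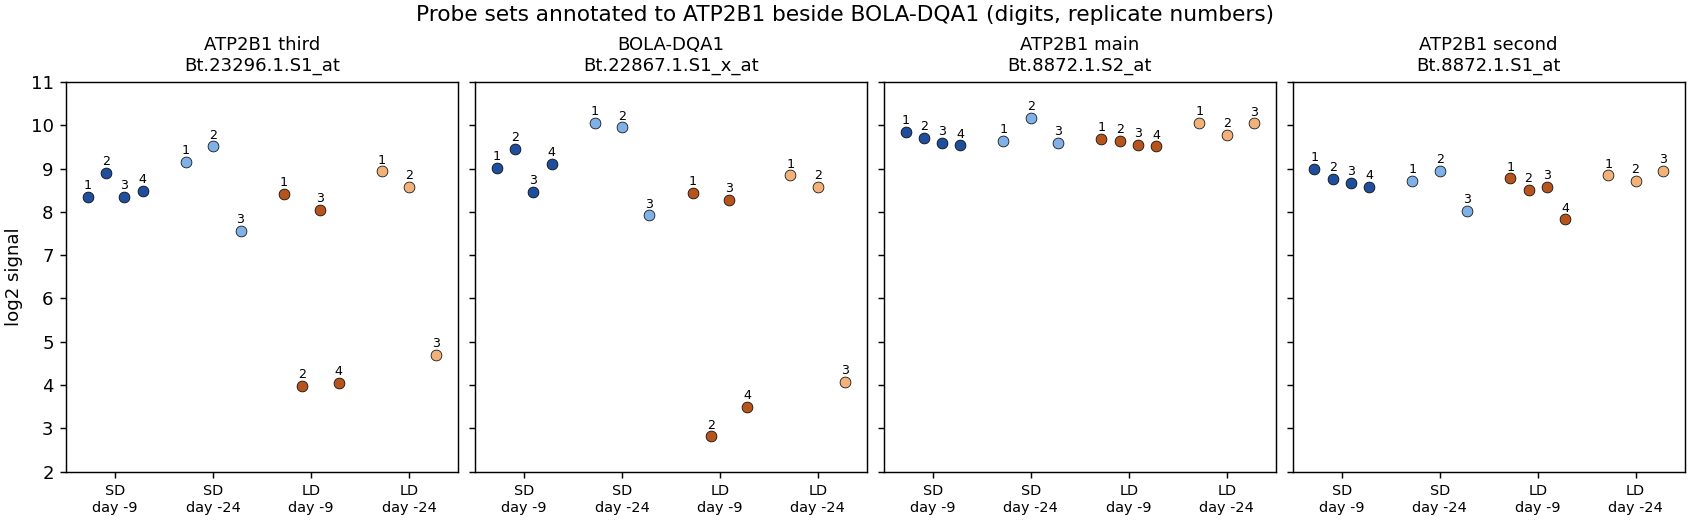
Log2 signal (y axis) of the 3 probe sets annotated to ATP2B1 and of BOLA-DQA1, by group (x axis); digits are replicate numbers. The same 3 LD arrays are near the foot of the panels of the third ATP2B1 probe set and BOLA-DQA1, between 2.82 and 4.70, and not in the panels of the main and the second ATP2B1 probe sets.

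ATP2B2, the plasma membrane pump PMCA2, gave a signal near background in every array. It was at 3.09, 2.96, 3.54 and 3.25 in SD day -9, at 3.30, 3.01 and 3.48 in SD day -24, at 3.08, 3.53, 3.26 and 3.63 in LD day -9 and at 3.68, 3.02 and 3.45 in LD day -24. All 14 values were below the lower quartile of their own array, and the groups overlapped. SD minus LD was -0.17 at day -9 (interval -0.56 to 0.23) and -0.12 at day -24 (-0.58 to 0.33). Without 1 array, the ATP2B2 values ran from -0.28 to -0.08 at day -9, and at day -24 from -0.31 without LD day -24 replicate 2 to 0.03 without LD day -24 replicate 1. At such a signal a change of the transcript may go unseen by this probe set.

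ATP2C1, the Golgi pump SPCA1, was bright, and each of its 4 intervals below holds 0. It was at 9.63, 9.80, 9.77 and 9.80 in SD day -9, at 9.94, 9.46 and 9.59 in SD day -24, at 9.59, 9.75, 9.80 and 9.14 in LD day -9 and at 9.58, 9.85 and 9.96 in LD day -24. The lowest value was in LD day -9 replicate 4, and the groups overlapped. SD minus LD was 0.18 at day -9 (interval -0.16 to 0.52) and -0.13 at day -24 (-0.52 to 0.26). Between days the difference was 0.09 in SD (interval -0.28 to 0.45) and -0.22 in LD (-0.59 to 0.14). Without LD day -9 replicate 4, SD minus LD of ATP2C1 was 0.04 at day -9 and the difference between days in LD was -0.08. Without 1 array, its day -24 value ran from -0.27 to -0.03.

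PTHLH, the calcium-mobilising hormone, had group means that spanned 1.06, against a within-group standard deviation of 1.11. It was at 9.50, 7.17, 7.33 and 6.51 in SD day -9, at 6.95, 6.67 and 6.09 in SD day -24, at 8.35, 5.77, 8.83 and 6.68 in LD day -9 and at 7.45, 6.70 and 6.24 in LD day -24. The 3 highest arrays, SD day -9 replicate 1 and LD day -9 replicates 3 and 1, were all of day -9, but the lowest array, LD day -9 replicate 2, was of day -9 as well. Day -9 minus day -24 was 1.06 in SD (interval -0.55 to 2.67, 2.09-fold), 0.61 in LD (-1.0 to 2.22) and 0.84 averaged over photoperiods (-0.30 to 1.97, limma adjusted p = 0.706). Without SD day -9 replicate 1 the difference of PTHLH was 0.44 in SD and 0.52 averaged over photoperiods. In LD it ran from 0.14 without LD day -9 replicate 3 to 1.16 without LD day -9 replicate 2. SD minus LD was 0.22 at day -9 (interval -1.27 to 1.71) and -0.23 at day -24 (-1.95 to 1.49). Without 1 array, the PTHLH value at day -9 ran from -0.40 without SD day -9 replicate 1 to 0.69 without LD day -9 replicate 3. At day -24 it ran from -0.51 without LD day -24 replicate 3 to 0.10 without LD day -24 replicate 1.

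CASR, the calcium-sensing receptor, was near background in the same way as ATP2B2. It was at 3.70, 3.28, 3.56 and 3.27 in SD day -9, at 3.58, 3.32 and 3.36 in SD day -24, at 3.26, 3.15, 3.37 and 3.32 in LD day -9 and at 4.09, 3.03 and 3.26 in LD day -24. All 14 values were below the lower quartile of their array, and LD day -24 replicate 1 was the highest. SD minus LD was 0.17 at day -9 (interval -0.24 to 0.59) and -0.04 at day -24 (-0.52 to 0.44). Without LD day -24 replicate 1 the day -24 value of CASR was 0.27, and without SD day -9 replicate 1 the day -9 value was 0.09.

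Group means can be put in order within a probe set. For ORAI1, by both probe sets, and for PTHLH the order from high to low was SD day -9, LD day -9, LD day -24 and SD day -24. For the main ATP2B1 probe set it was LD day -24, SD day -24, SD day -9 and LD day -9, and for STIM1 it was LD day -9, SD day -24, SD day -9 and LD day -24. For STIM1, PTHLH and the main probe sets of ORAI1, ATP2A2 and ATP2B1, no step between neighbours exceeded the larger standard deviation of the groups on either side. For the second ORAI1 probe set 2 steps did, 0.21 between LD day -9 and LD day -24 and 0.43 between LD day -24 and SD day -24. For CASR 1 step did, 0.14 between SD day -24 and LD day -9.

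Across the 14 arrays, the second ORAI1 probe set correlated with milk protein genes and with adipocyte markers. For each array the centred signals of a list were averaged, and 140 relations between 14 probe sets and 10 lists were computed. In all relations with lists, the 2 farthest arrays are those farthest from the median of the list mean, not of the gene. The second probe set correlated with the mean of the 5 milk protein genes (r = 0.83, permutation p = 0.00012, adjusted p = 0.0105; rho = 0.89, p = 6e-05, adjusted p = 0.0084). Without the 2 arrays farthest from the median of the list mean r was 0.75, and within days it was 0.87 over 8 arrays at day -9 and 0.82 over 6 at day -24. It also correlated with the mean of the adipocyte markers (r = 0.83, permutation p = 0.00015, adjusted p = 0.0105; rho = 0.87, p = 0.00016, adjusted p = 0.0112), with r = 0.87 without the 2 farthest arrays, 0.76 at day -9 and 0.79 at day -24. For adipocyte markers the 2 farthest arrays were SD day -9 replicate 3 and LD day -9 replicate 3, so SD day -24 replicate 2 stayed in. The main ORAI1 probe set had r = 0.66 with milk proteins (rho = 0.73; r = 0.64 without the 2 farthest arrays, 0.87 at day -9 and 0.43 at day -24) and r = 0.73 with adipocyte markers (rho = 0.73; r = 0.81 without the 2 farthest arrays, 0.66 at day -9 and 0.78 at day -24). For both, the permutation adjusted p of r was 0.0893, from p = 0.00558 and p = 0.00228. Both ORAI1 probe sets followed each other (r = 0.84, permutation p = 0.00025, adjusted p = 0.0025; rho = 0.84, p = 0.00031, adjusted p = 0.00155; r = 0.71 without the 2 arrays farthest from the median of the main probe set, 0.94 at day -9 and 0.79 at day -24).

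Adipocyte markers had array means that overlapped between the days and reached their highest values at day -9. Of 15 markers 14 were measured, and array means ran from 6.37 to 7.08 in SD day -9, 6.04 to 6.49 in SD day -24, 6.43 to 7.08 in LD day -9 and 6.21 to 6.58 in LD day -24. The log2 of their summed signal ran from 13.02 to 13.8 in SD day -9, 12.4 to 13.6 in SD day -24, 13.2 to 13.5 in LD day -9 and 12.8 to 13.5 in LD day -24. In SD, the difference between days was above 0 for 13 of 14 markers, against 46.7% of all probe sets. Of these 14, 4 averaged below the lower quartile of the arrays, the defining hormone genes ADIPOQ and LEP among them, besides DGAT2 and PCK1. Which cells of the biopsy gave the signal of the other markers was not tested, so their mean is not a measure of fat content. With the adipocyte mean in the fit, the day difference of ORAI1 by its second probe set was 0.37 in SD and 0.19 averaged over photoperiods, and that of the main probe set was -0.02 averaged over photoperiods. With the luminal marker mean instead, ORAI1 by its second probe set was at 0.64 in SD and 0.42 averaged over photoperiods. PTHLH had r = 0.72 with milk proteins (rho = 0.78, permutation p = 0.00291, adjusted p = 0.0893; r = 0.71 without the 2 farthest arrays, 0.77 at day -9 and 0.87 at day -24). With adipocyte markers PTHLH had r = 0.65 (rho = 0.67, permutation p = 0.0108, adjusted p = 0.137; r = 0.64 without the 2 farthest arrays, 0.61 at day -9 and 0.44 at day -24), and its day difference in SD with that mean in the fit was -0.0015.

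Another 5 relations had the same permutation adjusted p of 0.0893 for r. PTHLH had r = 0.71 with skeletal muscle markers (rho = 0.62; r = 0.55 without the 2 farthest arrays, 0.77 at day -9 and 0.33 at day -24). The main ATP2A2 probe set had r = -0.69 with milk proteins (rho = -0.73; r = -0.76 without the 2 farthest arrays, -0.58 at day -9 and -0.83 at day -24). CASR had r = 0.67 with milk proteins (rho = 0.48; 0.77 without the 2 farthest arrays, 0.73 at day -9 and 0.84 at day -24). LD day -24 replicate 1, at 4.09 the highest array for CASR, was kept in both the 0.77 and the 0.84. With macrophage and dendritic cell markers, ATP2B2 had r = 0.68 (rho = 0.76; 0.69 without the 2 farthest arrays, 0.77 at day -9 and 0.91 at day -24). The third ATP2B1 probe set, whose arrays form separate levels, had a relation of the opposite sign, negative, with the same markers. No pooled r is given for it. ATP2B2 and CASR were near background in every array.

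**Figure D4:**
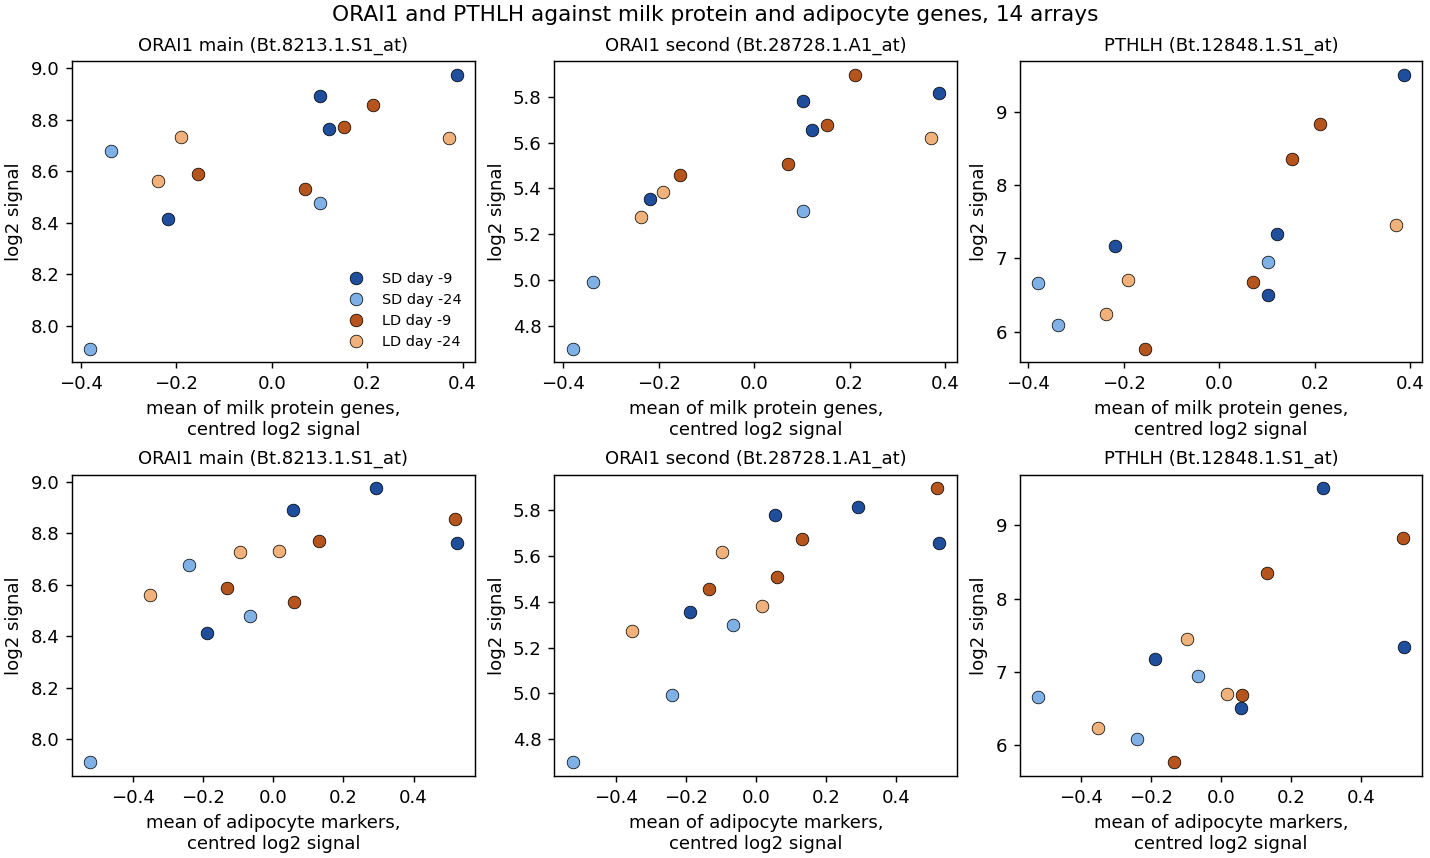
Log2 signal (y axis) of both ORAI1 probe sets and of PTHLH against the centred array mean of milk protein genes (top, x axis) and of adipocyte markers (bottom, x axis), for 14 arrays coloured by group. SD day -24 replicate 2, the array with 4.70 for the second probe set, is at the low end of both axes in the panels of ORAI1.

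The genes whose pattern over the 14 arrays was most like each main probe set were found among 7544 probe sets of single-symbol genes at or above the median signal. These values are descriptions. For ORAI1 they were FGFBP1 (r = 0.85) and MUC15 (r = 0.85), for STIM1 EPS15L1 (r = 0.95) and PBDC1 (r = 0.95), and for ATP2A2 PDSS1 (r = 0.87) and ACOT7 (r = 0.86). For ATP2B1 they were MEX3C (r = 0.96) and KMT2E (r = 0.95), for ATP2B2 AP5Z1 (r = 0.77) and BCO2 (r = 0.77), and for ATP2C1 ELAVL1 (r = 0.92) and RNF14 (r = 0.88). For PTHLH they were AOX1 (r = 0.85) and TM4SF1 (r = 0.82), and for CASR SNX7 (r = 0.90) and CSN1S1 (r = 0.89). Without the 2 arrays farthest from the median of the main probe set, r was 0.93 for MEX3C, 0.46 for FGFBP1 and 0.47 for TM4SF1. Between main probe sets of different genes, r ran from -0.67 (STIM1 and CASR) to 0.59 (STIM1 and ATP2A2).

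The wider set of calcium genes gave 94 measured genes in 8 lists, and none passed limma's adjusted p of 0.05 in any contrast. At an unadjusted p under 0.05 the photoperiod contrasts gave 2 genes at day -9 (2.13% of the 94, against 2.77% of all probe sets). They gave 4 at day -24 (4.26% against 2.42%) and 1 over both days (1.06% against 1.94%). The day contrasts gave 4 genes in SD (4.26% against 4.56%), 7 in LD (7.45% against 7.47%) and 6 over both photoperiods (6.38% against 7.72%). The interaction gave 6 (6.38% against 4.15%). Of the 9 other pumps and exchangers measured of 19 listed, SLC8A1, a plasma membrane sodium-calcium exchanger, averaged 4.68 ± 0.12 in SD day -9 and 4.27 ± 0.13 in SD day -24 (standard deviation, n = 4 and 3; log2 difference 0.41, limma adjusted p = 0.970). SLC8A1 was dim. In SD day -24 it was at 4.36 or below, under the lower quartiles of the arrays, which ran from 4.47 to 4.73. SLC8B1, the mitochondrial sodium-calcium exchanger, differed by 0.35 between days in LD. Of 13 other channels measured of 30 listed, PKD2, a cation channel, differed by -0.36 between days in SD and by -0.28 averaged over photoperiods.

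In the store, CALR, the luminal calcium buffer calreticulin, averaged 9.27 ± 0.35 in SD day -24 and 10.08 ± 0.36 in LD day -24 (standard deviation, n = 3 each), a difference of -0.81 with groups that did not overlap (limma adjusted p = 1.0; 5.67% of all probe sets did not overlap). RCN3, a calcium-binding protein of the endoplasmic reticulum, differed by -0.42 between photoperiods at day -9 and by 0.57 between days in LD. Of these 15 genes measured of 23 listed, 2 were above 0 and 13 below for SD minus LD averaged over days (median -0.08, against 0.01 over all probe sets, of which 47.8% were below 0). All 8 mitochondrial calcium genes measured of 16 listed were above 0 for SD minus LD at day -24 (median 0.09), and 7 of 8 were below 0 at day -9 (median -0.10). Of all probe sets, 52.7% were above 0 at day -24 (median 0.01) and 49.8% below 0 at day -9 (median 0.00). The unadjusted limma p-values of these 8 genes were 0.156 or more, and whether they move together was not tested. Of 17 cytosolic sensors and effectors measured of 25 listed, 0 reached an unadjusted p under 0.05 between photoperiods, and CAMK2G, a calmodulin-dependent kinase, differed by 0.47 between days in LD.

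Of 14 genes of PTHLH, CASR and calciotropic signalling measured of 30 listed, CALCRL, the calcitonin receptor-like receptor, differed by -1.08 and its partner RAMP1 by 0.87 between photoperiods at day -24, each with groups that did not overlap. CALCRL ran from 5.75 to 7.30 in SD day -24 and from 7.48 to 7.98 in LD day -24. RAMP1 ran from 7.32 to 8.42 in SD day -24 and from 6.64 to 7.20 in LD day -24. In that contrast groups did not overlap for 5 of the 94 calcium genes and for 5.67% of all probe sets. RAMP3, another such partner, differed by 0.56 between days averaged over photoperiods. At day -24 RAMP3 was dim, averaging 4.65 in SD and 4.54 in LD, near the lower quartile of the arrays. In the serotonin axis (13 genes measured of 20 listed), DDC, which makes serotonin from its precursor, differed by -0.58 between photoperiods averaged over days, and HTR1F, a receptor near background, by 0.28 at day -9. Of the 5 milk protein genes, LALBA, the alpha-lactalbumin gene, differed by 0.59 between days averaged over photoperiods. CSN1S2, a casein gene, differed by 0.61 between days in SD and by -0.61 between photoperiods at day -24. None of these named differences passed the adjusted threshold.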

How the data were processed

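Mammary RNA of 14 arrays was measured, and the values used are the log2 signals that the authors deposited, one per probe set and array, made with RMA per the submitters' processing notes. The version of RMA and the array software are not given in the sources used here. Background correction, normalization and summarization were therefore taken as deposited; RMA compresses differences of dim probe sets. Of the 24128 probe sets deposited, 112 controls were left out. Symbols came from the platform annotation: 13292 tested probe sets had 1 symbol, 86 several and 10638 none.

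Group means of the 4 groups were fitted to all 14 arrays with limma 3.58.1 in R 4.3.3, with moderated tests, Benjamini-Hochberg adjustment over 24016 probe sets and a threshold of 0.05; the fit was tested on simulated data. Exact permutation tests of the arrays and 100000-resample permutation tests of relations were added for single values. Arrays have no read depth; their number limits the precision. The gene and marker lists, the members and the tests were chosen with earlier results of these data known. All probe sets of the 8 genes are named; from each of the 8 calcium lists up to 2 genes of smallest p in a contrast are named, and for each main probe set the 2 genes of highest r; BOLA-DQA1 and BOLA-DQB1 were chosen after their values were seen. Intervals are 95%. Levels were not compared between probe sets. Probe sets of a gene were numbered by mean signal. Figures were drawn with matplotlib.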

Additional observations from a re-analysis of the deposited data

How the results depend on the processing

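None of the 98 results of the 14 probe sets passed the adjusted threshold in 2765 alternative values, wherever an adjusted p was computed. These came from 30 settings that included 14 fits without 1 array each. The exact permutation setting repeats the 98 reported differences without an adjusted p, so it could neither pass nor change a sign. In that setting 4 results had an unadjusted exact permutation p under 0.05. Signs changed in 250 of the 2765 values, and in 5 where the reported difference was larger than its standard error. By the third of its probe sets, ATP2B1 at day -24 (SD minus LD) ran from -0.017 to 2.10 over the fits without 1 array. With the 3-prime minus 5-prime mean as a covariate, ATP2A2 by the fourth of its probe sets was -0.13 between days in SD. With the adipocyte mean as a covariate, PTHLH was -0.0015 between days in SD and -0.037 averaged over photoperiods, and ORAI1 by its main probe set was -0.017 averaged over photoperiods. The cause was not tested.

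Over all probe sets, 187 of 190 alternative counts of calls were 0. Without 1 array each, the count ran from 0 to 1 for SD minus LD averaged over days (1 without SD day -9 replicate 3) and from 0 to 1 for day -9 minus day -24 in SD (1 without SD day -24 replicate 3), and it was 1 without SD day -24 replicate 3 and LD day -9 replicate 4 together. No calcium gene probe set was among these calls.

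Between the full signals of any 2 arrays r was 0.950 or more, and the r of the pairing check is not of these full signals. For same-numbered arrays of the same photoperiod it was 0.04, 0.22 and 0.25 in SD and 0.33, 0.19 and -0.31 in LD. For differently numbered ones it ran from -0.33 to 0.30 in SD and from -0.30 to 0.30 in LD. These values do not decide whether numbers mark cows. The labels do not say so, and the numbers were not taken to pair arrays. With the replicate block, ORAI1 by its second probe set differed by 0.65 between days in SD (limma adjusted p = 0.796), and with the block within photoperiod by 0.61 (limma adjusted p = 0.992). The block changed 0 calls. With 3 or 4 arrays a group, and with ATP2B2 and CASR near background, small differences were not detectable. Larger ones were not called either where arrays of a group spread widely. Examples are 1.06 for PTHLH between days in SD and 2.40 for the third ATP2B1 probe set at day -9 (SD minus LD).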
